A study of Mus musculus with 14 samples.

Results

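Transformed mouse embryonic fibroblasts whose TRF1 carried 2 sets of substitutions were compared with the same kind of cells labelled as carrying unmutated naked mole rat (NMR) TRF1, both grown in normoxia. The double mutant had 2 libraries, A and B, and wild-type NMR TRF1 had 2, so 4 of the 14 libraries of the series entered the contrast. These columns were taken by their names from the deposited table of CPM values, in which each library's read counts are scaled to 1 total. A gene was tested when 2 or more of the 14 libraries held it at 1 CPM or above, which was so for 16157 of the 52636 genes in the table. In every line, per the labels, the mouse TRF1 protein was substituted by NMR TRF1 or a mutant of it. Both groups shared that replacement, the transformed state, the DEM medium with serum and atmospheric oxygen. The double mutant carried Glu69Lys, Val70Ala and Ala75Thr, called GLAD, together with Ala105Thr, called TIN. The GLAD and TIN single mutants in normoxia, with 2 libraries each, served as further points of reference. The labels do not say whether a line was 1 clone or whether A and B were separate cultures. The p-values rest on a spread per gene that is pooled within groups over all 14 libraries, hypoxia included. They measure only spread between libraries, and not that of these 2 groups alone. TruSeq libraries from MicroElute-purified total RNA were read on a NovaSeq instrument.

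Batch and genotype are confounded in this comparison. The wild-type columns are named "Mouse" in a pattern that no mutant column uses, while their titles give naked mole rat TRF1. The counts do not show whether these libraries carried the naked mole rat or the mouse protein, and "wild type" below stands for the libraries so labelled. Preparation batch, sample naming, clone and genotype therefore cannot be told apart, and every difference below is one between these 2 sets of libraries. The wild-type libraries also differed more from each other than those of any other group. Among genes at 5 CPM or more on average, 45 (0.384%) were at least 2-fold apart between wild-type A and B, against 1 gene (0.00844%) between the double-mutant libraries. The standard deviation of the log2 difference between libraries was 0.297 in the wild type and 0.139 in the double mutant. Genes with longer exons tended to be lower in wild-type B than in A, with a Spearman correlation of -0.30 between the difference and exon length over 16117 genes. The matching value for GC content was 0.39, and in the double mutant the values were -0.01 and 0.03. Genes are not independent replicates, and all points of such a correlation share the same libraries. The part of length and GC content in the differences below was not tested.

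TRF1 is a subunit of shelterin, the complex that coats the TTAGGG repeats at chromosome ends. It binds duplex telomeric DNA as a dimer, assists the replication fork in passing through the repeats, and recruits TIN2, which links it to TRF2, TPP1 and POT1. Its partners also include the tankyrases, which modify TRF1 with poly(ADP-ribose) and release it from telomeres. Embryonic fibroblasts in culture are mesenchymal cells that secrete collagen-rich matrix and growth factors. They switch on glycolytic, inflammatory or contractile gene programs according to oxygen, cytokines and the stiffness of their surroundings.

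The libraries carried the transcripts of fibroblasts. Of 11 fibroblast markers, 10 passed the filter, and Thy1 stayed under 1 CPM in all 4 libraries. Marker sums in this paragraph are of deposited CPM, before scaling. The summed level of the fibroblast markers was 9956 and 10929 CPM in the double mutant and 15011 and 15509 CPM in the wild type. Epithelial markers summed to 1.95 and 2.10 CPM in the double mutant and 3.30 and 4.50 CPM in the wild type, with 9 of 10 under 1 CPM in all 4 libraries. The endothelial sums were 5.35 and 3.90 CPM against 12.5 and 10.3 CPM, and the myeloid sums 26.3 and 27.6 CPM against 34.4 and 45.4 CPM. The neural sums were 269 and 277 CPM against 245 and 212 CPM. Of 6 neural markers tested, 66.7% were called at an adjusted p under 0.05, beside 56.9% of all genes tested. They were 3 higher, with Sox2 at 1.88, and 1 lower, Tubb3. The limma calls of Nes, S100b and Tubb3 were lost with only the 4 libraries compared (adjusted p = 0.0956, 0.0665 and 0.0788). The adipocyte sums were 38.7 and 47.8 CPM against 19.8 and 26.3 CPM. Fabp4 was higher at 1.14, and 2 of the 3 adipocyte markers tested were not called. The skeletal muscle sums were 2.20 and 2.50 CPM against 1.60 and 2.40 CPM, and the chondrocyte and osteoblast sums 58.5 and 60.4 CPM against 73.1 and 67.0 CPM. The part of these markers in the results was not tested. Csf1r and Cd68 made up most of the myeloid sum, while Adgre1 and Tyrobp were at 0. Myod1, Myf5 and Pax7, which define muscle precursors, were at 0 in all 4 libraries, as were Sox10, Adipoq and Ibsp. In bulk RNA a lower level can come from fewer cells of a type or from less RNA per cell, which cannot be told apart here. Depth, recovered from the grid on which the CPM values lie, was 13156171 and 11916993 reads in the double mutant and 12473678 and 13933217 reads in the wild type. A count of 0 allowed up to 0.228 and 0.252 CPM in the former and 0.240 and 0.215 CPM in the latter, covering counting error only.

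Of the 16157 genes tested, 9186 (56.9%) were called at an adjusted p under 0.05, the threshold used throughout. In 12079 genes (74.8%) the 2 double-mutant values did not overlap the 2 wild-type values. Of the called genes, 4564 (28.2%) were higher in the double mutant and 4622 (28.6%) lower. At least 2-fold changes numbered 1282 higher (7.93%) and 895 lower (5.54%). The median difference over all genes tested was -0.013 on the log2 scale, and the median size of a called difference was 0.63. Because more than 1 gene in 2 was called, a count of called members in a list is read against these shares. Differences are log2 values of scaled CPM plus 0.5, double mutant minus wild type, and the error given with ± is the model's standard error. The addition of 0.5 CPM understates the change of genes at low levels.

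**Figure D1:**
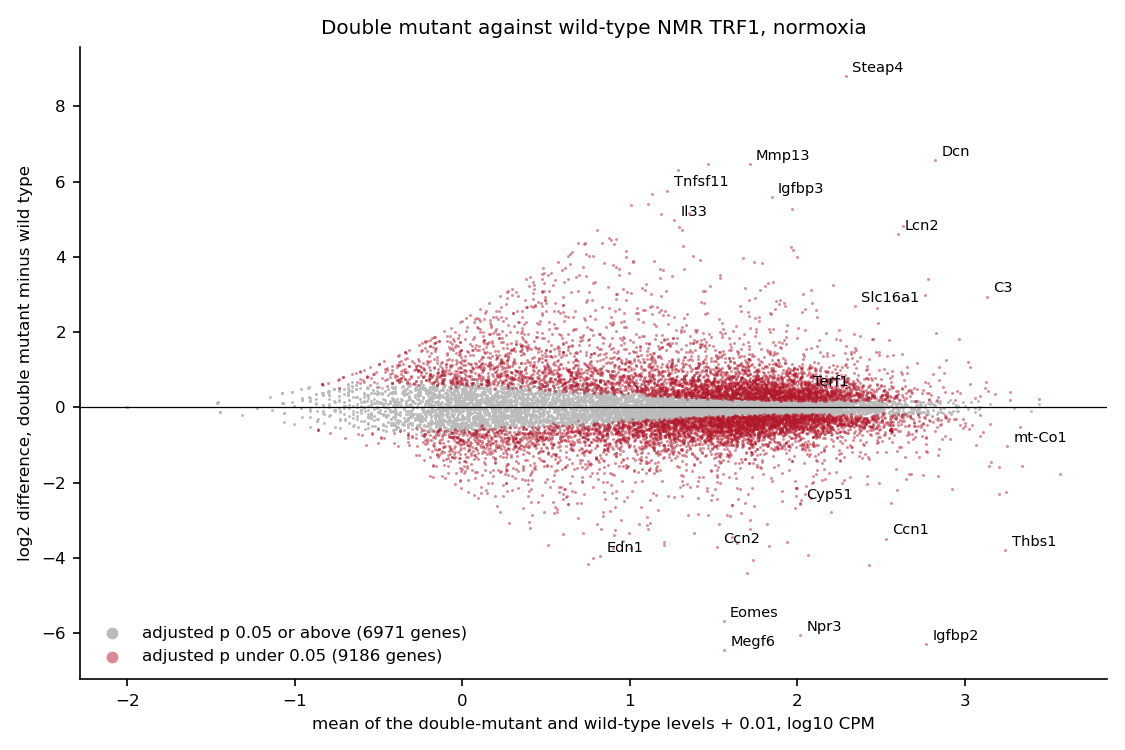
Log2 difference between double-mutant and wild-type NMR TRF1 cells in normoxia (vertical axis) against the mean level of each gene (horizontal axis, log10 of CPM plus 0.01), with 1 point per gene. The 9186 called genes lie on both sides of 0, from Steap4 at 8.81 to Megf6 at -6.45.

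Shelterin genes differed little. Terf1, at chr1:15805646-15844052, encodes TRF1 itself, and the counts cannot separate mouse reads from reads of the NMR sequence, so its level does not check the labels. It stood at 128 and 136 CPM in the double mutant and 105 and 87.4 CPM in the wild type, a log2 difference of 0.46 ± 0.08 (adjusted p = 0.00012). In the GLAD and TIN mutants it stood at 148 to 149 and 179 to 186 CPM, so the wild-type libraries held the lowest levels of the 4 normoxia groups. Pot1b, a rodent single-strand binder that governs resection of chromosome ends, had 9.63 and 9.74 CPM against 7.86 and 5.74 CPM, a difference of 0.50 ± 0.16 (adjusted p = 0.013). In limma refits the Pot1b call was lost with only the 4 libraries compared (adjusted p = 0.0578). It was also lost with library weights by group (adjusted p = 0.072). The Pot1b difference was 0.28 without wild-type B and 0.49 without double-mutant B. The other shelterin members had differences of 0.02 (Terf2ip), 0.12 (Acd), 0.13 (Tinf2), 0.14 (Terf2) and 0.21 (Pot1a), none called. Pot1a passed the limma test without the TMM factors (adjusted p = 0.0428), with median-of-ratios factors (0.0487) and without wild-type A (0.0266). Terf2 and Acd passed it without wild-type B, at adjusted p-values of 0.0471 and 0.00295. All 7 members were tested, 2 were higher and 0 lower, with a median of 0.14. Thus 28.6% were called, beside 56.9% of all genes tested.

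Genes of telomerase and telomere maintenance went both ways. Tert and Terc, the telomerase catalytic subunit and its RNA, did not pass the filter on low values. Of 21 members tested, 6 were higher and 7 lower, and the median was -0.02. The share called, 61.9%, was near the 56.9% of all genes tested. The count of lower members was 3 without double-mutant A and 4 without wild-type B. Tnks2, one of the tankyrases that act on TRF1, had 232 and 217 CPM in the double mutant against 128 and 94.1 CPM in the wild type, a difference of 1.03 ± 0.10 (adjusted p = 1.2e-07). Smchd1, a chromatin protein found at long telomeres, was higher by 0.63. Nhp2, a protein of the telomerase ribonucleoprotein, was lower at -0.81, with 30.4 CPM in both double-mutant libraries against 45.4 and 63.7 CPM. Ten1, a subunit of the CST complex that helps fill in the telomeric C-strand, was lower at -0.76. Dkc1, the pseudouridine synthase of telomerase, and Rtel1, the helicase that unwinds telomere loops, had differences of 0.10 and -0.02 that were not called.

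The genes with the largest gains included a metalloreductase, proteoglycans and a collagenase. Steap4, a metalloreductase that takes part in iron uptake and inflammatory responses, lies at chr5:7960457-7982213. It had 405 and 377 CPM in the double mutant and 0.504 and 0.257 CPM in the wild type, a difference of 8.81 ± 0.12 (adjusted p = 4.2e-20). The wild-type level rested on a handful of reads in each library. Dcn, at chr10:97479609-97518143, encodes decorin, a small proteoglycan that binds collagen fibrils. It had 1299 and 1334 CPM against 13.0 and 13.6 CPM, a difference of 6.58 ± 0.07 (adjusted p = 5.1e-21). Mmp13, the collagenase at chr9:7272514-7283331, had 104 and 103 CPM against 0.605 and 0.770 CPM, a difference of 6.46 ± 0.13. Vcan, the large proteoglycan versican, had 162 and 203 CPM against 5.04 and 3.54 CPM, a difference of 5.26 ± 0.12. These 4 genes were picked for the size of their difference. Their double-mutant and wild-type values did not overlap, as in 74.8% of all genes tested. The single mutants lay between for Steap4, at 142 and 157 CPM in GLAD and 5.00 and 5.36 CPM in TIN, and for Dcn, at 389 and 401 CPM in GLAD and 34.1 and 37.0 CPM in TIN. Vcan stood at 162 CPM in both GLAD libraries, and the double mutant was not called against them (adjusted p = 0.32).

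Receptors, enzymes and transcription factors were also among the genes with the largest gains. Gpr149, an orphan receptor, was at 0 in both wild-type libraries and at 40.4 and 38.2 deposited CPM in the double mutant, at least 164-fold higher when the wild type is set to the floor of 3 reads per library. The TIN mutant held it at 42.2 and 46.6 CPM and the GLAD mutant at 1.06 and 0.883 CPM, so the double mutant sat at the level of TIN. Calcrl, the receptor for calcitonin gene-related peptide and adrenomedullin, was at least 85.4-fold higher by the same measure. Etv1, an ETS-family factor, had 24.8 and 26.5 CPM against 0 and 0.257 CPM, and Gda, guanine deaminase, had 28.7 and 25.9 CPM against 0 and 0.103 CPM. Tnfsf11, the cytokine RANKL that drives osteoclast formation, had 33.2 and 33.6 CPM against 0.101 and 0.154 CPM. Enpp5, Ptgfr (the prostaglandin F receptor) and Serpina3n (an acute-phase protease inhibitor) had differences of 6.45, 5.15 and 5.16. Serpina3n has close paralogs, and reads shared between copies could be split by the counting.

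Genes of the cytokine and chemokine list were mostly higher in the double mutant. The list also holds acute-phase genes, growth factors, the receptor Il1rl1, the enzyme Ptgs2 and Spp1. Of its 27 members tested, 21 were higher and 2 lower, with a median of 1.08 beside -0.01 for all genes. At least 2-fold gains were found in 16 of them. Lcn2, lipocalin 2, which sequesters bacterial siderophores, had 757 and 784 CPM in the double mutant against 27.6 and 35.5 CPM in the wild type, a difference of 4.60 ± 0.10 (adjusted p = 1.2e-16). Saa3, a serum amyloid A protein made outside the liver, had 289 and 304 CPM against 24.8 and 37.3 CPM, a difference of 3.26 ± 0.16. Il33, an alarmin released from damaged cells, had 36.9 and 35.8 CPM against 0.907 and 0.462 CPM, a difference of 4.99 ± 0.21. C3, the central complement protein, was among the most abundant genes that changed and had 2287 and 2551 CPM against 308 and 319 CPM, a difference of 2.94 ± 0.08. Spp1, osteopontin, differed by 2.99 and Il1rl1, the receptor of Il33, by 1.27. Cxcl12, a chemokine that retains blood stem cells, was on the other side at -0.76, as was Il34 at -0.60. Il33 and Il1rl1, ligand and receptor, were both higher. Outside Il34 and Cxcl12, which were chosen after their values were seen, no member of the list was called lower. Without the TMM factors, and without any 1 of the 4 libraries, the count of lower members was 1. In the single mutants C3 had 1068 and 1163 CPM in GLAD and 116 and 122 CPM in TIN, so the 4 groups fell into the order TIN, wild type, GLAD, double mutant with no overlap.

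The promoters of C3 and Mmp3 are shown because both genes were high in the double mutant and both windows hold the letters TTGCNNAA, a short form of the site bound by C/EBP factors. Each sequence gives the 250 bases before the RefSeq start in GRCm38.p6, read 5′ to 3′ along the gene's strand. Capitals mark TTGCNNAA on either strand and, in Mmp3, also TGAGTCA, the AP-1 site.
C3, chr17:57228137-57228386, minus strand: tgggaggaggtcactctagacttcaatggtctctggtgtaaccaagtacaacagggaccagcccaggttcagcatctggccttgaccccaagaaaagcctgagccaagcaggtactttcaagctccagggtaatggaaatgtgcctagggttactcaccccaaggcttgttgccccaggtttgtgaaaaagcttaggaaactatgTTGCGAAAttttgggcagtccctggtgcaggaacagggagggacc
Mmp3, chr9:7445572-7445821, plus strand: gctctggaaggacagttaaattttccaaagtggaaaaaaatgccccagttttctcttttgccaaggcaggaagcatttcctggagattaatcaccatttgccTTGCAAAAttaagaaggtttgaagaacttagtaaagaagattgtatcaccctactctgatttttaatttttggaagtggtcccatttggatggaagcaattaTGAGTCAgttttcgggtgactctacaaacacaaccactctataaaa
The C3 match begins 45 bases before the start. In Mmp3 the matches begin 148 bases (TTGCNNAA) and 46 bases (TGAGTCA) before it. Of 24 promoters found for 19 of the 27 tested genes of the cytokine and chemokine list, 9 (37.5%) held TTGCNNAA. The share was 7.34% of the 13943 promoters of all genes tested. Cebpb encodes one of the C/EBP factors. It was at 52.3 and 55.8 CPM in the double mutant and 30.7 and 39.3 CPM in the wild type. The difference was 0.63 ± 0.12 (adjusted p = 0.00021). The GLAD mutant held Cebpb at 21.7 and 26.3 CPM and the TIN mutant at 39.7 and 35.2 CPM. A part of Cebpb in the levels of these genes was not tested. In all, 11 motifs were searched in 5 lists, and those described were chosen after their counts were seen. A match is a run of letters and does not show binding.

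Genes with the largest losses included growth factor binders, matrix genes and developmental regulators. Igfbp2, an insulin-like growth factor binding protein, lies at chr1:72824503-72852474. It had 14.5 and 14.2 CPM in the double mutant against 1083 and 1253 CPM in the wild type, a difference of -6.29 ± 0.14 (adjusted p = 1.2e-16). Megf6, a secreted protein with EGF-like repeats, had 0.245 and 0.450 CPM against 78.1 and 68.6 CPM, a difference of -6.45 ± 0.22. Npr3, the clearance receptor for natriuretic peptides, had 3.23 and 2.10 CPM against 222 and 190 CPM, a difference of -6.05 ± 0.15. Eomes, a T-box factor of early embryo and lymphocyte development, had 0.783 and 1.05 CPM against 69.9 and 74.0 CPM, a difference of -5.68 ± 0.22. For these 4 genes the wild type also stood above both single mutants. Igfbp2 had 30.6 and 31.7 CPM in GLAD and under 1 CPM in both TIN libraries, and Megf6 had 2.17 CPM or less in all 4 single-mutant libraries. Npr3 had 44.7 and 44.9 CPM in GLAD and 4.60 and 3.92 CPM in TIN. Edn1 (endothelin-1), Fat2 (an atypical cadherin) and Sh3rf2 had differences of -3.94, -4.00 and -3.73. Selp, P-selectin, had 0.0978 and 0 CPM against 6.80 and 6.05 CPM.

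Thbs1, Ccn1 and Ccn2, which encode secreted matrix-associated proteins, were also far lower. Thbs1, thrombospondin 1, which activates latent TGF-beta, lies at chr2:118111876-118127133 and had 230 and 239 CPM in the double mutant against 3662 and 2881 CPM in the wild type, a difference of -3.79 ± 0.13 (adjusted p = 5.5e-14). The TIN mutant held Thbs1 at 261 and 264 CPM, not called against the double mutant (adjusted p = 0.34). Ccn2, connective tissue growth factor, at chr10:24595442-24598683, had 4.64 and 3.90 CPM against 67.3 and 57.0 CPM, a difference of -3.72 ± 0.11. Ccn1, its relative at chr3:145646976-145649981, had 57.5 and 52.4 CPM against 613 and 626 CPM, a difference of -3.48 ± 0.10. Ccn1 and Ccn2 are textbook targets of the YAP and TAZ co-activators, which act through TEAD factors. The promoter of Ccn1 is shown with GGAATG, the TEAD core, in capitals on whichever strand it lies.
Ccn1, chr3:145649986-145650235, minus strand: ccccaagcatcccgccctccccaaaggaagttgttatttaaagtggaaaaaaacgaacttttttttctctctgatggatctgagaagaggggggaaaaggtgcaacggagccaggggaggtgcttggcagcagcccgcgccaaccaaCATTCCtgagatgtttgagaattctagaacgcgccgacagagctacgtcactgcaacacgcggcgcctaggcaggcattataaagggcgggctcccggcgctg
The single match begins 103 bases before the start. GGAATG was held by 9 of 18 promoters found for 17 genes of the contractile and myofibroblast list and by 10.9% of the promoters of all genes tested. In that list 3 of 20 members were higher and 12 lower, with a median of -0.47. Tpm1, a tropomyosin, had 352 and 377 CPM against 772 and 854 CPM, a difference of -1.16 ± 0.08. Tagln, transgelin, and Cnn2, a calponin, were lower at -1.19 and -1.06. Des, desmin, went the other way at 1.07 from a level of about 1 to 2 CPM.

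Among 19 tested genes of TGF-beta and BMP signalling, 6 were higher and 11 lower, with a median of -0.86. Tgfb3, a TGF-beta ligand, had 38.7 and 41.4 CPM in the double mutant against 267 and 288 CPM in the wild type, a difference of -2.78 ± 0.09 (adjusted p = 3.3e-14). The antagonists Grem1, which binds BMPs, and Fst, follistatin, which binds activins, were higher at 2.24 and 3.18. Tgfbi, a matrix protein induced by TGF-beta, was also higher, with 137 and 141 CPM against 17.0 and 20.9 CPM. Within the insulin-like growth factor list, Igfbp3 was higher at 5.59, Igfbp6 at 3.87 and the ligand Igf1 at 3.19, while Igfbp2 was lower. Thus 4 of 8 genes of that list were higher and 3 lower.

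Collagen genes went in both directions, with 6 of 21 tested chains higher and 12 lower and a median of -0.44. The fibrillar chains Col1a1, Col1a2 and Col5a2 were lower. Col1a1 had 1567 and 1796 CPM against 5472 and 6086 CPM, a difference of -1.78 ± 0.10 (adjusted p = 8.8e-11), and Col1a2 and Col5a2 differed by -2.25 and -2.30. Col11a1, a minor fibrillar chain, and Col7a1, the chain of anchoring fibrils, differed by -3.60 and -3.13. Col3a1, also fibrillar, was higher at 1.08, with 1457 and 1477 CPM against 706 and 678 CPM. Col6a3, a microfibril chain, had 946 and 1254 CPM against 100 and 105 CPM, a difference of 3.40 ± 0.10. Col18a1, a basement membrane chain that gives rise to endostatin, had 106 and 103 CPM against 6.10 and 7.23 CPM, a difference of 3.87 ± 0.11. Col6a3 was high in all mutants, at 542 and 564 CPM in GLAD and 820 and 780 CPM in TIN. Among other matrix proteins 12 of 34 were higher and 16 lower, with Dcn, Vcan and Lum (lumican, at 3.68) on one side and the small leucine-rich proteoglycans Aspn (-4.39) and Ogn (-4.04) on the other. Proteases and their inhibitors counted 10 higher and 12 lower of 24, and Mmp3 (stromelysin-1) had 824 and 844 CPM against 31.0 and 27.7 CPM, a difference of 4.81 ± 0.09. Mmp2, a gelatinase, and Mmp10 differed by 2.83 and 3.40.

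**Figure D2:**
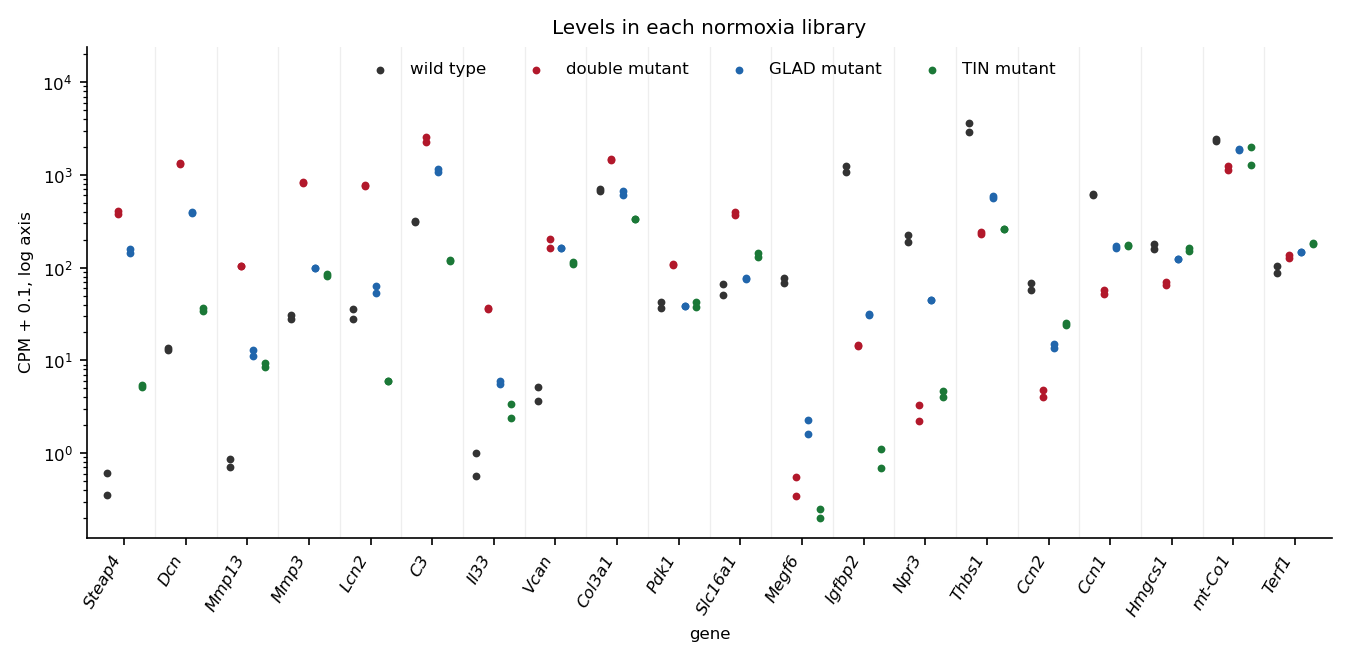
Level of 20 genes in each of the 8 normoxia libraries (vertical axis, CPM plus 0.1 on a log axis), with 2 points per group for libraries A and B. The double-mutant points of Steap4, Dcn, Mmp13 and Lcn2 lie above both wild-type points, and those of Megf6, Igfbp2, Npr3, Thbs1, Ccn2 and Ccn1 lie below them.

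Glycolytic genes were higher almost throughout. Of 22 tested, 17 were higher and 2 lower, with a median of 0.71. Slc16a1, the lactate and pyruvate transporter MCT1, at chr3:104638668-104658462, had 397 and 368 CPM in the double mutant against 67.2 and 51.1 CPM in the wild type, a difference of 2.69 ± 0.10 (adjusted p = 9.0e-14). Pdk1, the kinase that keeps pyruvate out of mitochondria, had 107 and 109 CPM against 42.9 and 36.8 CPM, a difference of 1.43 ± 0.08. Pfkl, a phosphofructokinase subunit, and Slc2a1, the glucose transporter GLUT1, differed by 1.28 and 1.17. Hk2, hexokinase 2, and Ldha, lactate dehydrogenase A, differed by 1.13 and 1.07. Pfkfb3, which makes the activator of phosphofructokinase, was lower at -1.03 with 22.2 and 19.6 CPM against 45.3 and 41.1 CPM. Of the 2 lower members 1 was left in a limma fit without either double-mutant library or without wild-type B. Pfkfb3 was chosen after its value was seen.

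Other targets of HIF, the transcription factor of the hypoxia response, counted 18 of 28 higher and 5 lower and a median of 0.60, although both groups were grown at normoxia. Ak4, an adenylate kinase of mitochondria, had 20.6 and 18.4 CPM against 6.40 and 6.00 CPM, a difference of 1.58 ± 0.11 (adjusted p = 7.7e-10). Ero1l, an oxidase of the endoplasmic reticulum, Vegfa, the angiogenic growth factor, and Car9, a membrane carbonic anhydrase, differed by 1.55, 0.85 and 0.66. Lox, which crosslinks collagen, was lower, with 314 and 296 CPM against 1634 and 1138 CPM, a difference of -2.16 ± 0.12. The promoter of Pgk1, phosphoglycerate kinase 1, is shown because it holds ACGTG, the core of the HIF site, in capitals on either strand.
Pgk1, chrX:106186850-106187099, plus strand: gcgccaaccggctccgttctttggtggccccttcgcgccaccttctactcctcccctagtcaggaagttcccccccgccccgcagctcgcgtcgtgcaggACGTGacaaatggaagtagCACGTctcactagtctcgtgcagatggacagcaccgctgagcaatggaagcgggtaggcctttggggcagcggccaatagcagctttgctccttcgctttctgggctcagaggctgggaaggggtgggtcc
The matches begin 150 and 131 bases before the start. Pgk1 was at 434 and 454 CPM in the double mutant and 288 and 323 CPM in the wild type, a difference of 0.54 ± 0.07 (adjusted p = 5.1e-06), and was picked for its promoter. ACGTG was held by 14 of 35 promoters (40.0%) of the 22 glycolytic genes and by 21.1% of those of all genes tested.

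Genes of the respiratory chain were lower almost throughout. Of 67 nuclear genes of oxidative phosphorylation, 1 was higher and 55 lower, with a median of -0.54. Uqcrq, a complex III subunit, had 33.4 and 41.1 CPM in the double mutant against 78.0 and 101 CPM in the wild type, a difference of -1.25 ± 0.11 (adjusted p = 3.8e-08). Atp5e, Ndufb6 and Ndufb4, subunits of ATP synthase and complex I, differed by -1.06, -1.04 and -1.03. All 12 tested genes of the mitochondrial genome were lower, with a median of -1.28. mt-Co1, the core subunit of complex IV, had 1245 and 1123 CPM against 2344 and 2445 CPM, a difference of -1.02 ± 0.16 (adjusted p = 3.4e-05). mt-Nd6, encoded on the other strand of the mitochondrial genome, had 151 and 147 CPM against 393 and 377 CPM, a difference of -1.36 ± 0.21. mt-Nd3, mt-Co3, mt-Co2, mt-Nd4l and mt-Atp6 were under 10 CPM in all 8 normoxia libraries, and nuclear copies of mitochondrial sequence could take part of their reads. The sum over the mitochondrially encoded genes also differed within the TIN group, at 7401 and 4537 CPM, against 3694 and 3369 CPM in the double mutant. In the tricarboxylic acid cycle 2 of 21 genes were higher and 12 lower, with 1 higher without double-mutant B, led by Fh1 (fumarase) at -0.89 and Idh2 (isocitrate dehydrogenase) at -0.67.

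Every tested gene of cholesterol synthesis and uptake was lower, 24 of 24, with a median of -0.98. Cyp51, lanosterol demethylase, had 31.1 and 28.9 CPM in the double mutant against 178 and 179 CPM in the wild type, a difference of -2.55 ± 0.08 (adjusted p = 2.3e-14). Sqle, squalene epoxidase, Mvd, mevalonate decarboxylase, and Fdps, farnesyl diphosphate synthase, differed by -1.66, -1.65 and -1.65. The promoter of Hmgcs1, HMG-CoA synthase, is shown for its matches to TCACNCCAC, a sterol element bound by SREBP factors, and to CCAAT, the NF-Y box, both in capitals on either strand.
Hmgcs1, chr13:119690101-119690350, plus strand: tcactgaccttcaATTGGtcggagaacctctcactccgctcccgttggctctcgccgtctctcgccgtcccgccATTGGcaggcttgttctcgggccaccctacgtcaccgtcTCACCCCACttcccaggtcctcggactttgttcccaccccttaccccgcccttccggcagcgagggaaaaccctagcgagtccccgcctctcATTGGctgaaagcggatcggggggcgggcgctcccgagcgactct
CCAAT boxes begin 237, 176 and 45 bases before the start, and the sterol element 137 bases before it. Hmgcs1 was at 65.0 and 69.8 CPM against 178 and 157 CPM, a difference of -1.30 ± 0.08 (adjusted p = 1.4e-10), and was likewise picked for its promoter. CCAAT was held by 16 of 20 promoters (80.0%) found for 17 cholesterol genes and by 35.1% of those of all genes tested. TCACNCCAC was held by 1 of the 20 (5.00%) and by 1.04% of all. It was also held by 2 of 35 glycolytic promoters (5.71%) and 2 of 24 of the cytokine and chemokine list (8.33%). The other lists searched held it in 0 of 60 (oxidative phosphorylation) and 0 of 18 promoters (contractile), so it did not set the cholesterol list apart. In fatty acid synthesis and desaturation 1 of 12 genes was higher, a count of 0 without either double-mutant library or wild-type B, and 7 were lower, with Scd2, a desaturase, at -0.98 and Me1, malic enzyme, at -0.92.

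Side by side with the other mutants, the metabolic lists gave these counts, in comparisons that share the double-mutant libraries. Against the GLAD mutant 5764 genes (35.7%) were called, and against the TIN mutant 7865 (48.7%). Against the GLAD mutant, where 18.5% of all genes were higher and 17.2% lower, glycolysis had 17 of 22 higher and 0 lower, and against the TIN mutant, where the shares were 22.9% and 25.8%, it had 10 higher and 1 lower. Cholesterol genes were lower in 20 and 23 of 24, and mitochondrially encoded genes in 8 and 9 of 12. Nuclear respiratory genes were lower in 18 and 47 of 67. Pdk1 differed by 1.47 from the GLAD mutant and by 1.44 from the TIN mutant, beside 1.43 from the wild type. Slc16a1 differed by 2.33 and 1.49. Cyp51 stood at 74.1 and 69.1 CPM in GLAD and 86.0 and 94.7 CPM in TIN, between the double mutant and the wild type.

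**Figure D3:**
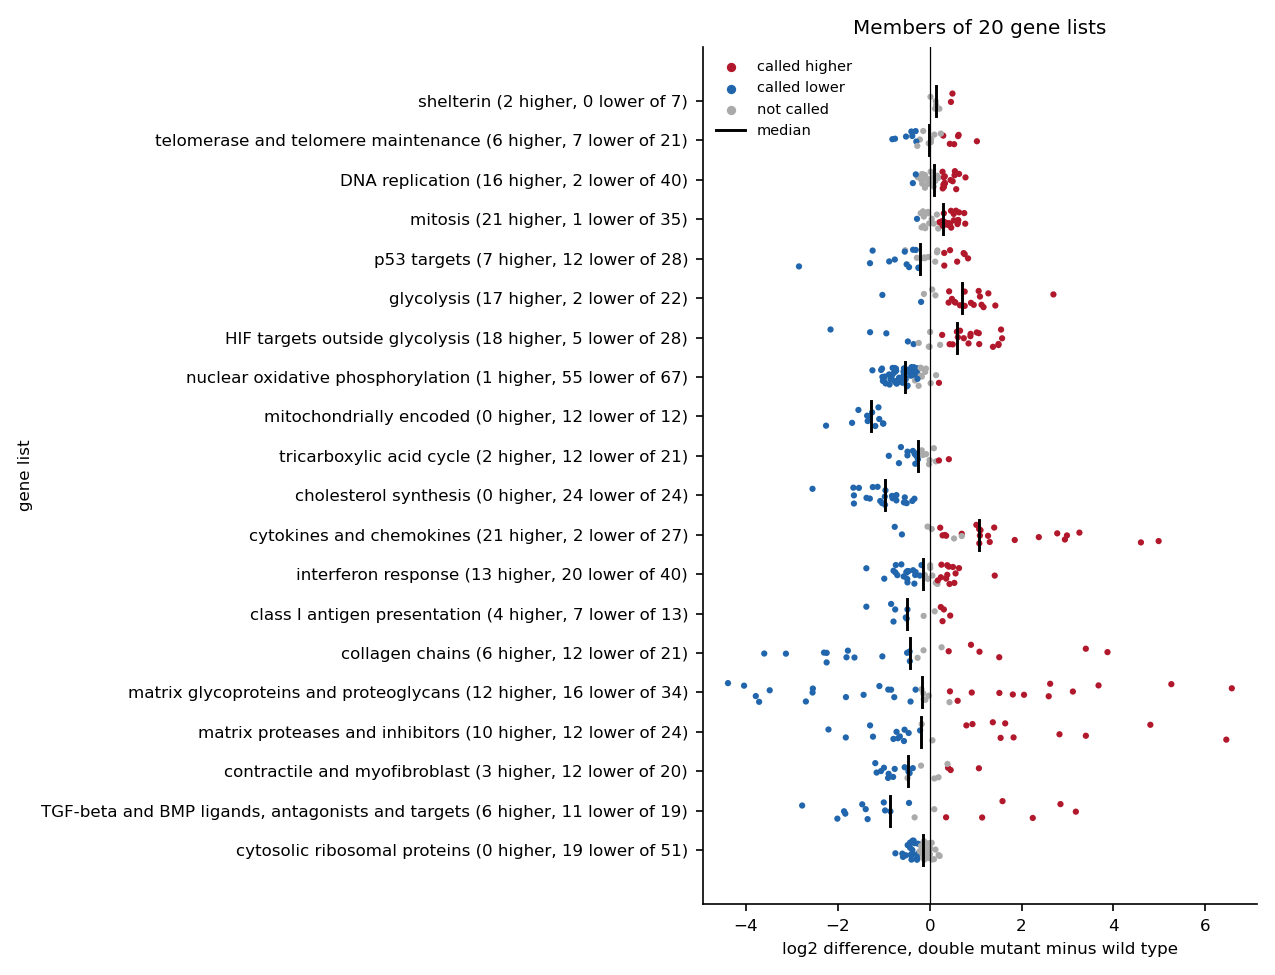
Log2 difference between double mutant and wild type (horizontal axis) for the members of 20 gene lists (vertical axis), with 1 point per gene, coloured by call, and a bar at each list's median. Glycolytic and cytokine genes lie mostly right of 0, and cholesterol, respiratory chain and mitochondrially encoded genes left of it.

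Of 35 mitotic genes 21 were higher and 1 lower, with a median of 0.29, and Anln (anillin), Kif11 (a spindle motor), Ttk (a checkpoint kinase) and Ndc80 (a kinetochore protein) differed by 0.77, 0.75, 0.64 and 0.62. The 1 lower gene became 5 without wild-type A and 0 without either double-mutant library. Of 40 DNA replication genes 16 were higher and 2 lower, with a median of 0.10. Mcm10, which loads polymerase at forks, had 96.7 and 98.8 CPM against 57.1 and 56.4 CPM, a difference of 0.78 ± 0.08 (adjusted p = 1.4e-07). The count of lower replication genes was 11 without wild-type A and 1 without wild-type B. Among homologous recombination and Fanconi genes 16 of 41 were higher and 9 lower, with 3 lower without double-mutant A and 5 without wild-type B. Fancd2, the Fanconi effector, had 66.8 and 68.3 CPM against 34.3 and 29.4 CPM, a difference of 1.08 ± 0.10, and Brca1, Atm and Topbp1 differed by 0.90, 0.85 and 0.79. The part of transcript length in these values was not tested.

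Genes of the p53 response were lower more often than higher, 12 and 7 of 28, with a median of -0.22. Perp, a desmosomal protein induced by p53, had 8.85 and 8.89 CPM in the double mutant against 67.9 and 66.0 CPM in the wild type, a difference of -2.85 ± 0.16 (adjusted p = 6.1e-11). Plk2, Btg2 and Phlda3 differed by -1.30, -1.24 and -0.88. Cdkn1a, the inhibitor p21, had 87.8 and 87.7 CPM against 96.7 and 111 CPM, a difference of -0.24 ± 0.09 (adjusted p = 0.022) that was lost without any 1 of double-mutant A, double-mutant B and wild-type B, at adjusted p-values of 0.127, 0.0805 and 0.172. Mdm2, which degrades p53, was higher at 0.32, and Trp53 itself differed by -0.13 and was not called, though it passed without wild-type A (adjusted p = 0.0245). The GLAD mutant held Perp at 38.2 and 37.9 CPM and the TIN mutant at 1.45 and 2.53 CPM. In the list of senescence and cell-cycle inhibitors 3 of 11 genes were higher and 4 lower, beside 28.2% and 28.6% of all genes tested. With only the 4 libraries compared in the fit, 1 was higher. Cdkn2b and Cdkn2a were lower at -0.96 and -0.56. Rbl1 was higher at 0.97, with 99.2 and 89.3 CPM against 56.1 and 41.0 CPM. Cdkn1c was higher at 0.84, from a mean of 0.306 CPM in the wild type to 0.941 CPM. Lmnb1, lamin B1, was lower at -1.07, with 88.4 and 98.4 CPM against 193 and 199 CPM.

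Interferon-stimulated genes showed a mixed pattern. Of 40 tested, 13 were higher and 20 lower, with a median of -0.14. Oasl1, an inhibitor of Irf7 translation, had 162 and 156 CPM in the double mutant against 53.9 and 64.9 CPM in the wild type, a difference of 1.42 ± 0.10 (adjusted p = 7.5e-10). Psmb8 and Psmb9, subunits of the immunoproteasome, differed by -1.38 and -0.79, and Rsad2, the antiviral enzyme viperin, by -0.99. In class I antigen presentation 4 of 13 genes were higher and 7 lower, with Psmb10 at -0.84 and Nlrc5, the transactivator of these genes, at -0.75. With only the 4 libraries compared in the fit, 2 class I genes were higher. The TIN mutant stood elsewhere. Psmb8 was at 0.745 CPM or less there, against 46.3 and 51.7 CPM in the double mutant and 114 and 144 CPM in the wild type. All 40 interferon genes were higher in the double mutant than in the TIN mutant, with a median of 4.22.

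Within the AP-1 and immediate-early list 12 of 26 were higher and 6 lower. Dusp6, the phosphatase that switches off ERK, had 64.5 and 63.2 CPM against 5.95 and 4.36 CPM, a difference of 3.52 ± 0.12 (adjusted p = 4.8e-14). Fosl1, an AP-1 subunit, Spry4, an inhibitor of receptor signalling, and Etv4, an ETS factor, differed by 2.53, 2.36 and 2.02. Fos and Egr1, the immediate-early factors, differed by -1.51 and -1.23 and were picked after their values were seen. Erbb3, a receptor of the EGF family, was higher at 2.64, with 19.9 and 18.9 CPM against 2.52 and 2.87 CPM. Fgfr2, a fibroblast growth factor receptor, was lower at -1.48, and 15 of 30 growth factor receptors were higher and 10 lower, with 5 lower without wild-type A and 6 without double-mutant B. Adhesion receptors counted 13 higher and 10 lower of 23, with the laminin receptor chain Itga6 at 2.91 (96.5 and 103 CPM against 14.3 and 11.4 CPM) and the collagen receptor chain Itga2 at 4.44.

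Developmental pathways moved member by member. In the WNT list 5 of 22 were higher, 3 of them without double-mutant B, and 10 lower, with the receptors Fzd1 and Fzd2 at -1.76 and -1.59 and the ligands Wnt11 and Wnt10b at -2.29 and -1.60. In the Notch list 6 of 13 were higher and 5 lower, with 3 higher without double-mutant B or without wild-type B. Hey1, a Notch target, had 23.6 and 21.6 CPM against 2.67 and 1.74 CPM, a difference of 3.11 ± 0.14 (adjusted p = 2.2e-12), while Hes1, another target, the ligand Dll1 and the glycosyltransferase Lfng differed by -1.99, -1.85 and -2.35. Of 16 Hox genes 5 were higher and 3 lower, led by Hoxd11 at 1.33 and Hoxa9 at -1.07. Among patterning factors of limb, axis and mesenchyme 13 of 41 were higher and 16 lower, with Msx2 at 2.13 and Emx2 and Pax3 at -2.37 and -2.00. Imprinted genes counted 6 higher and 2 lower of 11, with Peg10 at 1.29 and Mest at -1.73. Line and genotype cannot be told apart in these values.

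Stress and housekeeping lists showed smaller differences. Integrated stress response genes counted 6 higher and 10 lower of 30, a split that moved to 11 higher without the TMM factors and 10 higher without wild-type B. The lower count was 5 without double-mutant A or wild-type B and 6 without double-mutant B. Cth, which makes cysteine, led them at 1.44. Endoplasmic reticulum chaperones counted 6 higher and 6 lower of 22, with 54.5% called, near the 56.9% of all genes tested. With only the 4 libraries compared in the fit, 3 chaperones were higher. NRF2 targets counted 11 higher and 8 lower of 26, and clock genes 8 higher and 4 lower of 14. With only the 4 libraries compared in the fit, 3 NRF2 targets were lower and 4 clock genes higher. Fth1, the ferritin heavy chain, had 1427 and 1505 CPM against 578 and 689 CPM, a difference of 1.22 ± 0.09 (adjusted p = 1.1e-09). Gsta4, a glutathione transferase, differed by 3.07. Ribosomal protein genes counted 0 higher and 19 lower of 51, and this count hung on single libraries, at 40 without wild-type A, 9 without wild-type B and 6 without double-mutant A. Without wild-type B 4 ribosomal protein genes were higher. Processed copies of ribosomal protein and histone genes share reads with them, so these values are uncertain. Of 10 histone genes tested, 4 were higher and 0 lower, with 2 higher without double-mutant B, wild-type A or wild-type B and 1 lower without wild-type B.

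The double mutant was also set against the GLAD and TIN mutants. Clone and genotype cannot be told apart in these contrasts either. In normoxia 1576 genes (9.75%) differed in 1 direction from all 3 other groups, 863 (5.34%) higher and 713 (4.41%) lower, each at an adjusted p under 0.05. At least 2-fold differences against all 3 were found for 174 genes (1.08%) higher and 57 (0.353%) lower. The 3 contrasts share the double-mutant libraries, so their joint count is a description. Taken singly, 3.04% of all genes were at least 2-fold higher than in GLAD and 8.31% than in TIN, and 3.58% and 3.00% were at least 2-fold lower. Lcn2 had 52.8 and 63.0 CPM in the GLAD mutant and 5.90 and 5.96 CPM in the TIN mutant, both far under the 757 and 784 CPM of the double mutant. Nos2, the inducible nitric oxide synthase, had 59.6 and 68.7 CPM in the double mutant, 5.04 and 6.00 CPM in the wild type, 2.50 and 2.70 CPM in GLAD and 0.250 and 0.497 CPM in TIN. Hp, haptoglobin, had 40.2 and 36.5 CPM in the double mutant and at most 1.32 CPM in any other normoxia library. Gpnmb, a lysosomal glycoprotein, had 109 and 107 CPM in the double mutant and 8.18 to 12.6 CPM in the other 6 libraries. Plac8 and Tcim differed from the wild type by 4.16 and 4.03. Vnn3 had 8.80 and 8.74 CPM and Mcpt8 6.26 and 5.90 CPM in the double mutant, and both were at 0.53 CPM or less elsewhere in normoxia. Saa3 was likewise lowest in TIN, at 3.00 and 4.07 CPM, with 16.5 and 17.3 CPM in GLAD. Of the 27 tested genes of the cytokine and chemokine list, 13 were called higher against all 3 groups and 0 lower.

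On the lower side of the joint comparison, Ccn1 and Ccn2 were among the 10 genes with the largest smallest difference. Ccn1 had 162 and 169 CPM in the GLAD mutant and 177 and 173 CPM in the TIN mutant, between the double mutant and the wild type. Its differences were -1.59 from GLAD and -1.66 from TIN. Ccn2 differed by -1.62 and -2.40. Kif26b, an unconventional kinesin of WNT signalling, had 9.34 and 9.39 CPM in the double mutant, 137 and 116 CPM in the wild type, 66.1 and 72.6 CPM in GLAD and 28.2 and 30.0 CPM in TIN. Pcdh18, Gabre, Tenm3, Cacna1h, Lfng and Krt19 were also lower against all 3 groups, at -1.75 to -3.10 from the wild type. Dnm3os, a long noncoding RNA at chr1:162217623-162225550 that hosts Mir214, differed by -3.43, -1.53 and -1.55 from wild type, GLAD and TIN. Mir214 lies within it and differed by -3.73 from the wild type, and as both lie on the plus strand their reads cannot be told apart.

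**Figure D4:**
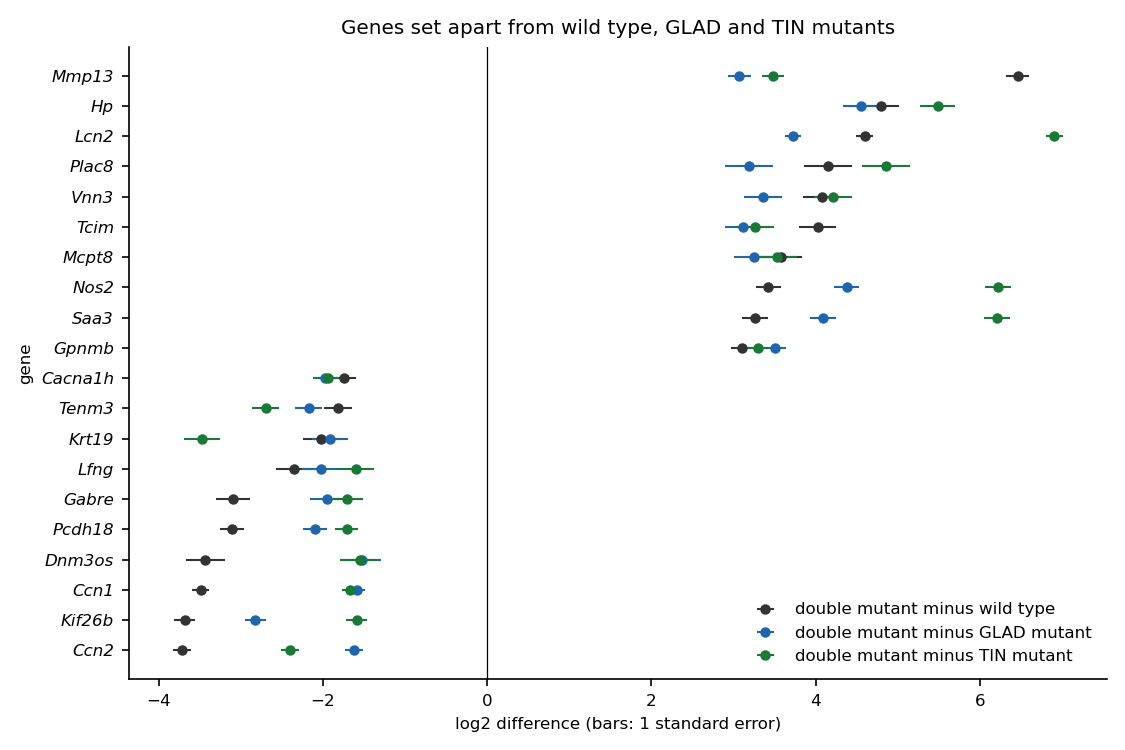
Log2 difference of the double mutant from the wild type, the GLAD mutant and the TIN mutant in normoxia (horizontal axis, bars of 1 standard error) for the 10 higher and 10 lower genes whose smallest difference was largest. Lcn2, Hp and Nos2 lie right of 0 in all 3 contrasts, and Ccn1, Ccn2 and Kif26b left of it.

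Differences from the wild type were also uneven along the genome. On chromosome 11, 164 of 1278 tested genes were higher (12.8%) and 630 lower (49.3%), with a median of -0.29. The corresponding medians were 0.07 against the GLAD mutant and 0.06 against the TIN mutant. The genes of chromosome 11, cut into 25 runs of 50 neighbours, had a median below 0 in 25 of them. Set against wild-type A or B alone, relative to all genes, the median was -0.26 and -0.30. On chromosome 18 the median was -0.32, with 50.6% of genes lower, beside -0.22 against GLAD and -0.05 against TIN. On chromosome 13 it was 0.15, with 37.2% higher, beside -0.16 and -0.07. Medians between mutants were uneven too, at 0.25 on chromosome 2 and -0.20 on chromosome 5 against GLAD. Against TIN they were -0.26 on chromosome 19 and 0.12 on chromosome 12. The cause of these shifts was not tested. Nhp2, Ten1, Uqcrq, Col1a1 and the ribosomal genes Rpl27, Rpl38 and Rpl26 lie on chromosome 11, and their differences stand beside its median of -0.29. Igfbp3, Nos2, Etv4 and Brca1, at 5.59, 3.43, 2.02 and 0.90, also lie there and were higher.

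**Figure D5:**
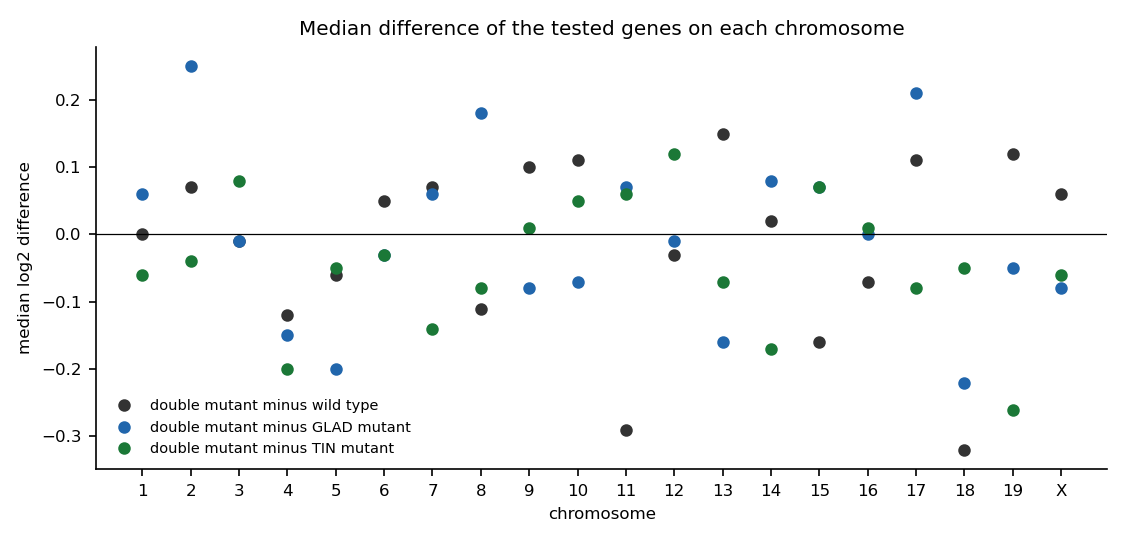
Median log2 difference of the tested genes (vertical axis) on each chromosome (horizontal axis) for the double mutant against the wild type, the GLAD mutant and the TIN mutant, with 1 point per chromosome and contrast. Chromosomes 11 and 18 have the lowest medians against the wild type, at -0.29 and -0.32.

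Transcript classes differed as well. Of 97 small nucleolar RNA genes tested, 1 was higher and 52 were lower, with a median of -0.68, beside -0.02 for 13127 protein-coding genes. The median of the same RNAs was -0.11 against GLAD and -0.94 against TIN. Most lie inside introns of host genes. Across 16117 genes the difference from the wild type had a Spearman correlation of 0.15 with exon length and -0.10 with GC content. The values were 0.02 and 0.03 against GLAD and 0.06 and 0.03 against TIN.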

How the data were processed

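The submitters' processing notes name STAR, HTSeq, GRCm38.p4 and mm10, and the authors deposited read counts scaled to a common total (CPM) for 52636 genes in 14 libraries. Their versions, the annotation release and the strand setting are not given in the sources used here. A count-based test had been planned, but the deposited unit was CPM. Values were therefore divided by trimmed-mean (TMM) factors and 0.5 CPM was added. The log2 values were fitted with limma 3.58.1 in R 4.3.3, with 7 group means over the 14 libraries and variances moderated along the mean. Levels in the text are TMM-scaled CPM unless called deposited. Benjamini-Hochberg adjustment ran over all 16157 genes tested in each comparison. Depth came from the grid of the CPM values, on which 99.81% to 99.94% of values were whole reads. The fit was checked on simulated data in which all groups had the same spread. That check does not cover the wider spread between the wild-type libraries.

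The members, lists and rules were chosen with earlier results of these data known. Named genes are the 15 largest called differences in each direction at 5 CPM or more, up to 4 called members of each list, a set of telomere, p53 and glycolysis genes, the 10 genes in each direction farthest from all 3 other normoxia groups, and in each direction the 5 of highest level among genes called at least 2-fold. Names outside the rule (Hmgcs1, Pgk1, Pfkfb3, Fos, Egr1, Cxcl12, Il34, mt-Nd4l, mt-Atp6) were chosen after their values were seen. Alternatives were other scalings, pseudocounts and filters, leaving out libraries, a replicate block, and, chosen after seeing the data, limma voom on recovered reads and library weights by group. Promoters are from RefSeq (GRCm38.p6), found for 10922 of the tested genes.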

Additional observations from a re-analysis of the deposited data

How the results depend on the processing

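For the double mutant against the wild type, the 9186 called genes became 9180 without the TMM factors, 9185 with median-of-ratios factors, 8974 with no filter on low values, 7992 at 5 CPM or more, 6897 with only the 4 libraries compared, and 7483 to 9849 when 1 library was left out. With limma voom on recovered reads the count was 9199, and with library weights by group, which gave the wild type 0.29 and the double mutant 1.33, it was 7071. Of the 9186 genes, 7069 were still called in the same direction with those weights. Against the GLAD mutant the count moved from 5764 to between 3800 and 4105 when 1 library was left out, lowest without GLAD library A. The count against all 3 groups ran from 1056 to 1970 when 1 library was left out. Among named genes only Rtel1, Terf2ip and Acd, none of them called, changed sign under an alternative, and 1 of the 9186 called genes did so without wild-type B. Against the TIN mutant, 3698 higher and 4167 lower genes became 3991 and 3604 with median-of-ratios factors and 3291 and 2586 without double-mutant A. The replicate block, with the library letter as the block, gave 9282 called genes and the same calls for all 219 named genes. The letters pair nothing by design, and deviations of same-letter libraries correlated at 0.17 between the double mutant and the wild type. The planned edgeR and DESeq2 fits were not run, and limma voom on the recovered reads stands in their place. With 2 libraries per group, no spread within a line beyond these pairs was measured, and genes near 0.2 CPM rest on about 3 reads.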
